A study of Mus musculus with 20 samples.

Results

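Itgad encodes integrin alpha D, an alpha subunit of the beta 2 integrins of leukocytes, and it was described here together with Itgam, Itgal, Itgax, Itgb2 and Itga4 in the hippocampus of adult mice. The 6 genes were found by their symbols among the 48709 genes of the deposited count table, and all 6 were among the 19797 genes that passed the filter on low counts. Itgad was chosen because its counts were lower in nPM-exposed than in control females, so every value of Itgad that involves the female samples is a description and was not tested. The samples were right hippocampi of saline-perfused C57BL/6 offspring (C57BL/6J in the study's methods) in 4 groups of 5: control females (labelled Ct_F), nPM females (nPM_F), control males (Ct_M) and nPM males (nPM_M). The nPM dams breathed re-aerosolized nano-sized urban particulate matter at 300 μg/m3 (the study's methods; the labels print the same figure in mg) for 5 hours a day on 3 days a week, from gestational day 2 until birth. Control dams were kept in filtered air in parallel, no offspring was exposed after birth, and the labels name no transgene or mutation. Females were 17.71 to 18.29 weeks old and males 18.57 to 19.14 weeks, so sex and age cannot be told apart here. The study's methods state that male mice were injected with EdU (a thymidine analogue) before tissue collection. They also state that all animals received it, and whether this includes the females is not clear. If females were not injected, EdU cannot be told apart from sex either. The methods do not tie samples to litters. P-values therefore measure the spread between these samples only.

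Integrins are cell surface receptors made of 1 alpha and 1 beta chain. The beta 2 chain (Itgb2, CD18) pairs with alpha L (Itgal), alpha M (Itgam, CD11b), alpha X (Itgax, CD11c) or alpha D (Itgad), and these receptors let leukocytes bind endothelium, matrix and complement-coated targets. In brain tissue the receptor of alpha M and beta 2 is best known from microglia, where it binds complement fragments and serves phagocytosis. Itga4 encodes an alpha chain that pairs with other beta chains and serves leukocyte entry into tissue through the endothelial ligand Vcam1.

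The 4 alpha chains of the beta 2 receptors lie close together on chromosome 7 of mm10, all on the plus strand: Itgal at chr7:127296260-127335138, Itgam at chr7:128062640-128118491, Itgax at chr7:128129547-128150657 and Itgad at chr7:128154376-128223816. Itgb2 is at chr10:77530252-77565708 and Itga4 at chr2:79255426-79333123. Itgad and Itgax are neighbours, and over 3450 aligned bases of coding sequence 72.4% were identical, against 64.9% for Itgad and Itgam and 57.0% for Itgad and Itgal. The closest stretch of Itgad and Itgax is printed because a read wholly inside its identical bases cannot, by its own sequence, be assigned to one gene. Capitals mark the 188 bases that are identical in both genes. The bases are spliced, Itgad from exon 12 onward within chr7:128189315-128189814 and Itgax from exon 11 onward within chr7:128135587-128136087.
Itgad: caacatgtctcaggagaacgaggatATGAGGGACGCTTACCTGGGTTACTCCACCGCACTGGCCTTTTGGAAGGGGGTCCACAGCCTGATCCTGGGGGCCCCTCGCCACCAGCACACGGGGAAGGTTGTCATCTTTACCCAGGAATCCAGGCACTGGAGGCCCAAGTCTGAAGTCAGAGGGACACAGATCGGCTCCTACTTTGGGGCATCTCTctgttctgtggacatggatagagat
Itgax: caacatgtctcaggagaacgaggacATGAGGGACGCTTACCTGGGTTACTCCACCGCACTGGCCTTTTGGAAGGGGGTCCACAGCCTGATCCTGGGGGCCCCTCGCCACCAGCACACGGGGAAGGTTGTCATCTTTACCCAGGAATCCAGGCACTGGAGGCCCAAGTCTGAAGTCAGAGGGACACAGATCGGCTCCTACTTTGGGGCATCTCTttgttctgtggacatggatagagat

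Itgad and Itgam had no such stretch. Their longest identical run was 16 bases, in capitals in the next pair, and it falls in exon 6 of both genes, in the part of the inserted domain that holds the metal ion-dependent adhesion site with which these alpha chains grip their ligands. The pair shows how far the chains differ even there, at chr7:128181698-128181763 for Itgad and chr7:128076040-128076105 for Itgam, both on the plus strand of mm10.
Itgad: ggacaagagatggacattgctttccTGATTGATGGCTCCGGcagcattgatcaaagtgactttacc
Itgam: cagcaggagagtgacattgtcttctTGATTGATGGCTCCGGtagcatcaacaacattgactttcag

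Of all 50-base words in the annotated exons of Itgad, 19.7% also occurred in exons of another gene, and 8.43% occurred in Itgax. At 100 bases the shares were 7.1% and 3.17%. Exons of Itgad overlap those of Gm17831, a pseudogene on the same strand, by 330 bases, and those of 4931431B13Rik, Gm39091 and Cox6a2 on the opposite strand by 388, 102 and 70 bases. Gm44850 overlaps Itgad only outside its exons. Gm17831 held 1 count over all 20 samples, Gm39091 held 0, 4931431B13Rik held 25 and Gm44850 held 12, whereas Cox6a2, a muscle-type subunit of cytochrome oxidase, held 10 to 79 counts per sample. Whether the counting used strand is not given in the sources used here, so reads of Itgad and of these partners may not be separable. Itgam shares 68.7% of its 5024 exon bases with the same-strand gene Gm49368, to which only 2 counts in all were assigned. Itga4 shares 8.04% of its exon bases with Cerkl on the opposite strand.

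Per exon length the members differed widely. Mean RPKM (TMM-scaled CPM, that is counts scaled to library size, divided by exon length in kilobases) over the 20 samples was 2.67 ± 0.715 (SD) for Itga4, 1.35 ± 0.228 for Itgb2, 1.06 ± 0.248 for Itgam, 0.304 ± 0.177 for Itgad, 0.0982 ± 0.0548 for Itgal and 0.0682 ± 0.0311 for Itgax. If only the 1574 exon bases of Itgam outside Gm49368 could collect reads, its mean would be 3.37 ± 0.791, above that of Itga4, so the place of Itgam in this order depends on how shared bases were counted. The ranges of Itgal (0.0221 to 0.240) and Itgax (0.0228 to 0.145) overlapped, as did those of Itgam and Itgb2. Itgax had 2 to 21 counts per sample and Itgal 5 to 48, in libraries of 19092067 to 38663408 counts, so counting error alone gave Itgax a coefficient of variation of about 31.9% and Itgal one of 22.7%.

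Itgad was highest in control females. Its counts were 66, 66, 107, 77 and 48 in control females 1 to 5 and 52, 35, 20, 21 and 16 in nPM females 1 to 5. On the CPM scale the control females had 2.11, 2.52, 3.34, 2.14 and 2.13, and the nPM females had 1.72, 1.67, 0.694, 1.15 and 0.525. Every control female was above every nPM female, and the nPM females fell into no tight cluster, with samples 1 and 2 near the lowest control and samples 3 and 5 far below it. Non-overlapping CPM ranges between these groups occurred for 0.364% of all tested genes, and nothing is read from Itgad being among them, since it was picked on this contrast.

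In males the same gene was low in both groups. Control males had 10, 15, 33, 35 and 33 counts of Itgad, or 0.373, 0.536, 1.22, 0.914 and 0.922 CPM. The nPM males had 28, 58, 51, 23 and 24 counts, or 0.742, 1.86, 1.48, 0.635 and 0.726 CPM. In males 0.667% of genes had ranges that do not overlap, and none of the 6 members was among them. The Itgad groups overlapped, with nPM males 2 and 3 above all controls and the other 3 inside the control range. The control means were 2.45 ± 0.525 CPM (SD, n = 5) for females and 0.793 ± 0.337 for males, and the nPM means 1.15 ± 0.546 for females and 1.09 ± 0.549 for males. The order from high to low was thus control females, nPM females, nPM males and control males, and only control females stood clear of their neighbour: the ranges of the other 3 groups overlapped.

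**Figure D1:**
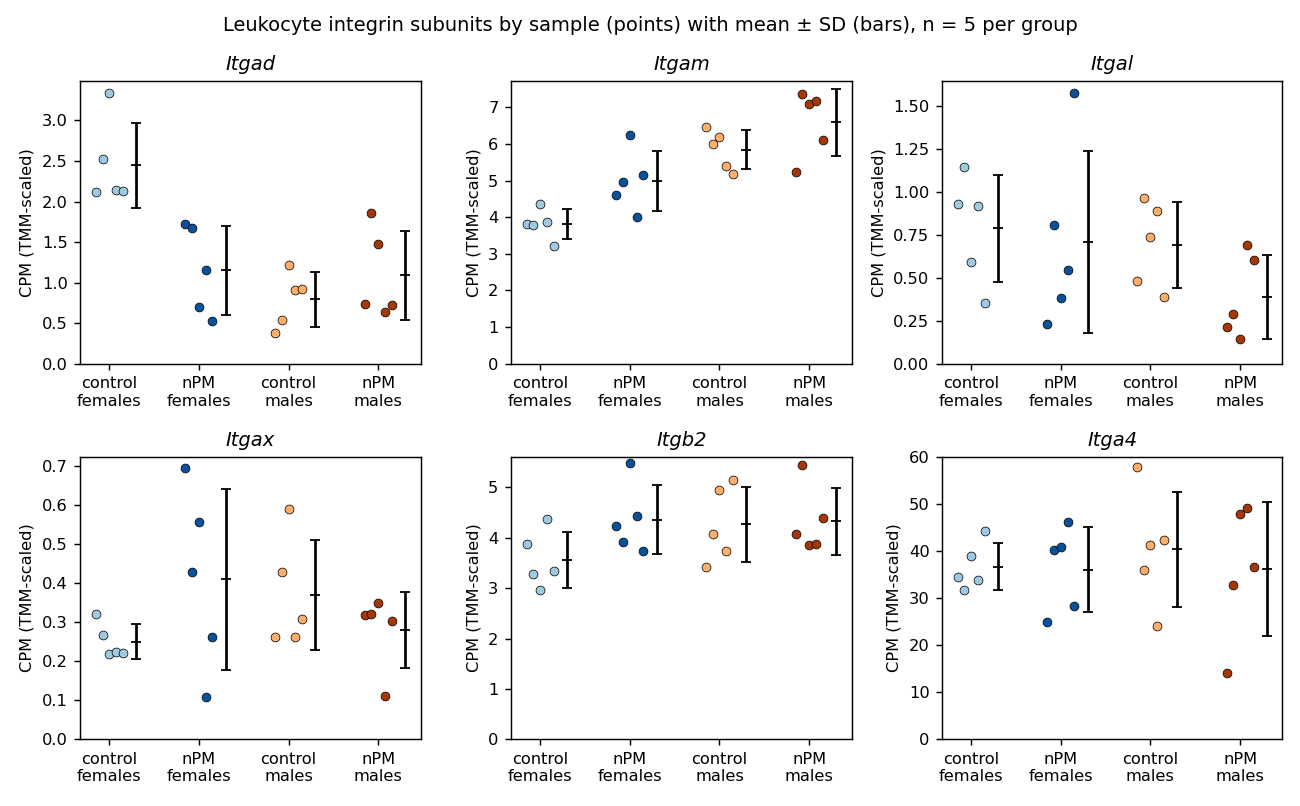
CPM (TMM-scaled) of each of the 6 genes on a linear axis from 0, with 1 point per sample, the 4 groups along the horizontal axis and bars for mean ± SD (n = 5). In the Itgad panel the 5 control females sit between 2.11 and 3.34, above all other samples, and in the Itgam panel the control females, at 3.20 to 4.37, sit below all males.

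The first question of the design is whether gestational nPM changed these genes in each sex. In males, where all 6 genes could be tested, none passed the study's threshold of p under 0.005 (limma-voom, 0 of 6), against 0.207% of all tested genes. The count was also 0 with edgeR and with DESeq2, and 1 of 6, Itgal, had an unadjusted p under 0.05, as had 4.28% of all tested genes. Itgad differed by 0.38 ± 0.39 on the log2 scale (SE, nPM minus control, 95% interval -0.46 to 1.22), and an exact two-sided permutation test over all splits of 5 against 5 gave p = 0.365. The nPM male and the control male at the ends of the Itgad range, nPM male 2 and control male 1, both belonged to the 3 libraries with the highest red blood cell markers (30.01 to 56.9 summed CPM, against 1.25 to 6.57 in the other 17), and without these 3 libraries the male difference of Itgad was 0.01. The part of blood in the Itgad values was not tested further.

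In females Itgad was 1.22 ± 0.31 lower on the log2 scale with nPM, a fitted fold of 0.428, given without a test. The pick favours genes with a large fall, so this estimate can lie too far from 0. The difference between the sexes in this nPM effect was 1.62 ± 0.51 for Itgad (males minus females, log2), also without a test. None of the other 5 genes passed in females (0 of 5, background 0.0909%), in both sexes combined with sex as a covariate (0 of 5, background 0.141%) or for the difference of the nPM effect between the sexes (0 of 5, background 0.217%). At an unadjusted p under 0.05 the counts were 1, 1 and 0 of 5, the 1 being Itgam. The share of all tested genes at that level is given for females only (1.99%), and nothing is read from these counts. With edgeR no member passed in these 3 fits, and with DESeq2 Itgam passed in both sexes combined. After Benjamini-Hochberg adjustment over all genes tested, no tested member had an adjusted p under 0.963 in the nPM fits (limma-voom).

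Itgam was the tested member closest to the threshold. Its CPM was 3.81, 3.78, 4.37, 3.87 and 3.20 in control females and 4.60, 4.96, 6.25, 3.997 and 5.16 in nPM females. Of the 5 nPM females, 4 lay above all controls, and nPM female 4 lay inside the control range. The difference was 0.40 ± 0.15 on the log2 scale (95% interval 0.08 to 0.72, limma-voom p = 0.0177, adjusted p = 0.99985), and the exact permutation test gave p = 0.0159, where 0.00794 is the smallest value it can give. At a nominal p under 0.05, 1.99% of all tested genes passed in females. In males Itgam was 6.45, 6.001, 6.203, 5.41 and 5.17 CPM in controls and 5.22, 7.37, 7.09, 7.18 and 6.11 CPM with nPM, 3 of the 5 nPM samples above all controls, and the difference of 0.17 ± 0.12 did not pass (exact permutation p = 0.198). With the sexes combined it was 0.26 ± 0.092 (limma-voom adjusted p = 0.99979), at rank 57 of 19797 by p, and it passed p under 0.005 without nPM male 1 (0.31), which has the lowest Itgam among the nPM males.

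Itgad and Itgam, the alpha D and alpha M chains, had fitted female differences of opposite sign. The count ratio of Itgad to Itgam, given as a description, averaged 0.138 ± 0.0607 (SD, n = 5) among control males, 0.162 ± 0.067 among nPM males, 0.242 ± 0.128 among nPM females and 0.641 ± 0.0887 among control females. As a share of the summed RPKM of the 4 alpha partners of Itgb2, Itgad made up 5.53% to 15.5% in control males, 8.29% to 20.7% in nPM males, 8.11% to 25.8% in nPM females and 32.7% to 42.4% in control females. Taken over all exon bases, the sum was 1.52 ± 0.141, 1.67 ± 0.266, 1.44 ± 0.170 and 1.47 ± 0.194 RPKM in the same order. Both the shares and the sum depend on how the bases that Itgam shares with Gm49368 were counted. Over unshared exon bases alone, mean Itgam would be 3.71, 4.19, 3.17 and 2.42 RPKM in that order. Mean Itgad would then be 0.219, 0.301, 0.318 and 0.677 RPKM. The sum would thus not be level between the groups, and the Itgad shares would be smaller.

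**Figure D2:**
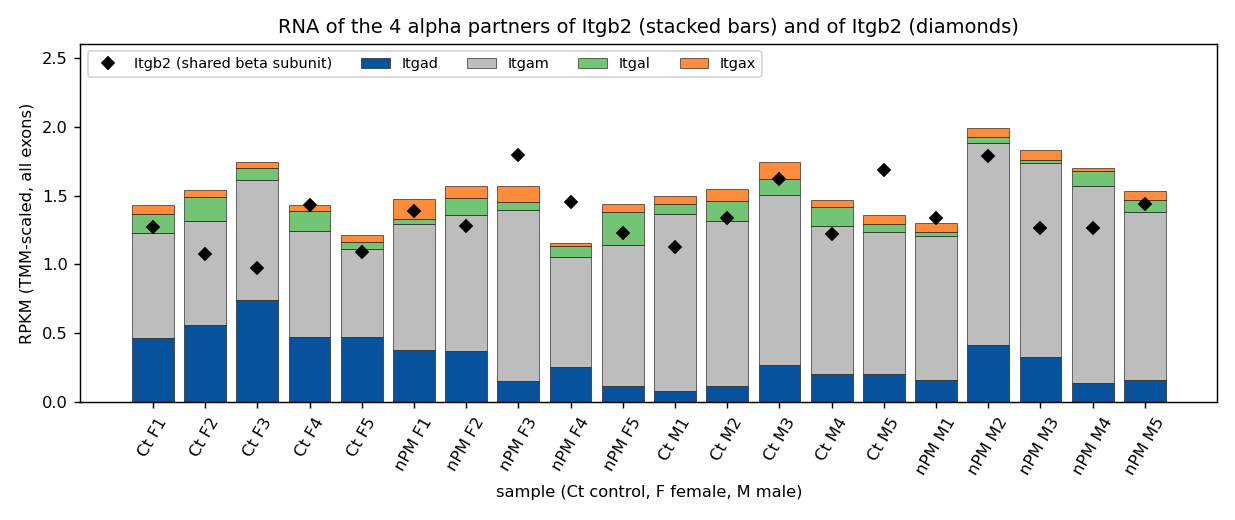
Stacked bars give the RPKM (TMM-scaled, over all exon bases, linear axis from 0) of Itgad, Itgam, Itgal and Itgax in each of the 20 samples, and diamonds give Itgb2. Itgad takes 32.7% to 42.4% of the bar in control females and no more than 25.8% in any other sample. The Itgam part would be taller, and the Itgad share smaller, if the Itgam bases shared with Gm49368 collected no reads.

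Itgal, the alpha chain of the lymphocyte receptor LFA-1, had 13, 27, 20, 34 and 14 counts in control males and 8, 9, 5, 25 and 20 in nPM males. Of the nPM males, 3 lay below every control in CPM and the other 2 inside the control range. The difference was -0.97 ± 0.44 on the log2 scale (95% interval -1.92 to -0.01, limma-voom p = 0.0471, adjusted p = 0.963), and the exact permutation test gave p = 0.0873. A nominal p under 0.05 was reached by 4.28% of all tested genes in males. In females the counts were 29, 30, 19, 33 and 8 in controls and 7, 17, 11, 10 and 48 with nPM, a difference of -0.35 ± 0.47 (exact permutation p = 0.548). The single nPM female 5 held more Itgal than any other sample, while nPM female 1 was below all controls.

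Itgax, the alpha X chain found on dendritic cells and on activated microglia, was the least abundant member. Control females had 10, 7, 7, 8 and 5 counts and nPM females 21, 9, 16, 2 and 8, so the exposed group held both the highest and the lowest sample, and the difference was 0.57 ± 0.43 (exact permutation p = 0.302). Control males had 7, 12, 16, 10 and 11 counts and nPM males 12, 10, 12, 4 and 10, a difference of -0.40 ± 0.37 (exact permutation p = 0.325). Both intervals reach past 1 log2 unit on one side (-0.36 to 1.49 and -1.21 to 0.42), so a 2-fold higher level in nPM females and a 2-fold lower level in nPM males both lie inside them at this depth.

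Itgb2, the beta chain that all 4 of these alpha chains need to reach the surface, had 3.87, 3.29, 2.96, 4.37 and 3.34 CPM in control females and 4.23, 3.91, 5.48, 4.43 and 3.74 in nPM females. The groups overlapped, with 2 nPM females above all controls, and the difference was 0.30 ± 0.16 (95% interval -0.06 to 0.65, limma-voom p = 0.0947, exact permutation p = 0.0714). In males it was 3.43, 4.07, 4.95, 3.74 and 5.14 CPM in controls and 4.08, 5.45, 3.86, 3.87 and 4.39 CPM with nPM. The male difference of 0.02 ± 0.15 (95% interval -0.31 to 0.34) changed sign with the samples left out (exact permutation p = 0.873).

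Itga4 was well counted, at 531 to 1784 counts per sample, yet it spread widely within groups. Its CPM ran from 24.1 to 58.0 in control males, 14.1 to 49.3 in nPM males, 31.8 to 44.3 in control females and 25 to 46.3 in nPM females. The coefficient of variation in nPM males was 39.4% where counting error alone would give 2.84%. The nPM differences were -0.05 ± 0.16 in females and -0.22 ± 0.33 in males (exact permutation p = 0.786 and 0.619), and the male value turned to 0.085 without nPM male 1, the lowest sample.

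**Figure D3:**
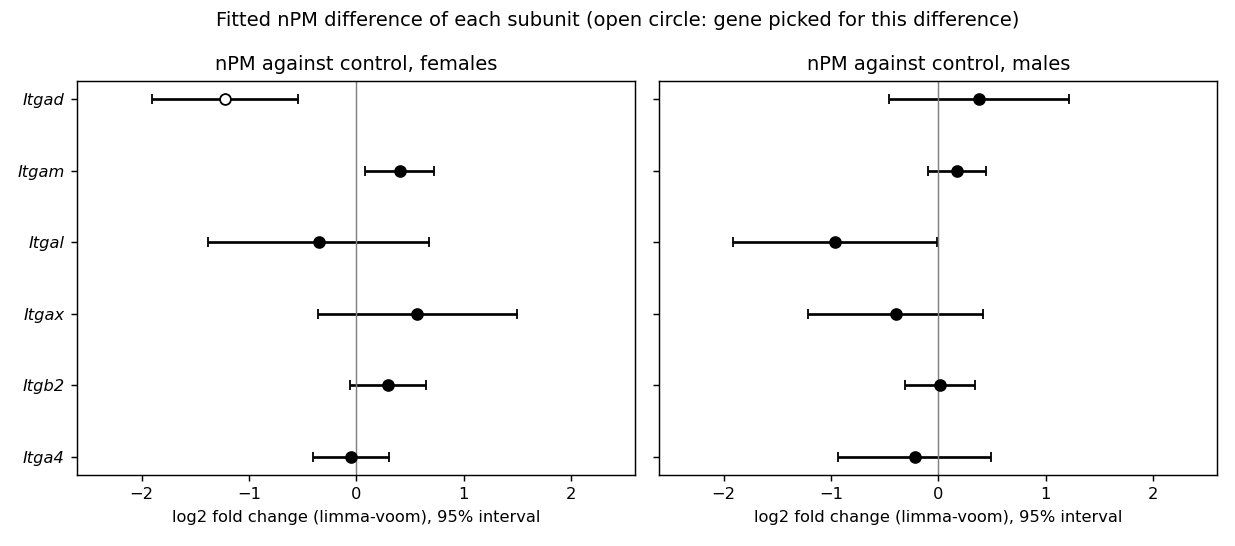
Fitted log2 fold change (nPM against control) of each gene in females (left) and males (right), with 95% intervals from limma-voom as horizontal bars and a vertical line at 0. The open circle marks Itgad in females, the value for which the gene was picked (-1.22), so its bar lacks 95% coverage and is not read. Of the 11 other intervals, those of Itgam in females and Itgal in males leave out 0.

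The control groups of the 2 sexes also differed. Sex cannot be told apart here from age, nor from EdU injection if only males received it. Itgam was lower in control females than in control males in every sample, by 0.59 ± 0.13 on the log2 scale (limma-voom p = 0.000265, adjusted p = 0.00289), and the exact permutation test gave 0.00794, the smallest value it can give. It was the 1 of 5 tested members to pass, where 22.6% of all tested genes passed, so this share is near the background of a comparison in which many genes differ. At an adjusted p under 0.05 the background was 30.1%, and CPM ranges that do not overlap occurred for 19.8% of genes in the same comparison. Itgad went the other way, 1.68 ± 0.35 higher in control females (log2), with no test because the control females entered its choice. Itgal, Itgax, Itgb2 and Itga4 differed by 0.19, -0.45, -0.24 and -0.09, with limma-voom p of 0.126 or more.

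Microglia are the main cells of brain tissue that make alpha M and beta 2, so the members were set beside 20 microglia markers, among them Ctss and the receptor P2ry12. The markers were present in every library, with a summed level of 481 to 565 CPM in control males, 505 to 554 in nPM males, 382 to 465 in control females and 368 to 571 in nPM females. The control groups did not overlap. All 20 markers were lower in control females and 7 passed p under 0.005 (8.96% of all genes passed as lower), with a median difference of -0.31 (log2) against -0.02 over all genes. They included P2ry12 (-0.65), P2ry13 (-0.62), Gpr34 (-0.45), Aif1 (-0.48), Ctss (-0.36) and Ly86 (-0.73). With nPM 18 of 20 had positive fitted values in females (median 0.19 against 0.00 over all genes), 11 of 20 in males, and none of the 20 passed in either sex (limma-voom). At an unadjusted p under 0.05 there were 2 of 20 in females (1.99% of all genes) and 0 in males (4.28% of all genes). Other lists had mostly positive female values too, 8 of 8 endothelial markers (median 0.22), 7 of 8 choroid plexus markers (median 0.92) and 8 of 8 other beta chains (median 0.17), with none past the threshold. In bulk tissue, fewer cells of a type and less RNA per cell cannot be told apart. The markers and Itgam were thus both lower in control females. Choroid plexus markers were lower there as well, in 8 of 8 genes (median -1.71, none past the threshold), with sums of 46.5 to 504 CPM in control females and 32.4 to 7371 in control males. With the choroid plexus markers as a covariate, a setting chosen after seeing the data, the Itgam difference was -0.61 (limma-voom adjusted p = 0.00306). The parts of choroid plexus and of microglia in the Itgam and Itgb2 values were not tested.

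Over the 20 samples, log2 CPM of Itgam was correlated with the log2 sum of the microglia markers (Pearson r = 0.694, permutation p = 0.00063, adjusted p = 0.0132 over 21 relations; Spearman rho = 0.716, permutation p = 0.00049, adjusted p = 0.0103). Without the 2 samples farthest from the median Itgam, r was 0.719. Within groups, taken as deviations from the group means, r was 0.306 (permutation p = 0.192), so the relation did not pass within groups. Permutation p-values of such deviations come from shuffling over all 20 samples, not within each group, and tend to be too small. For Itgb2, r was 0.604 (permutation p = 0.00473, adjusted p = 0.0497), rho was 0.571 (permutation p = 0.00974, adjusted p = 0.0682), and r was 0.512 without the 2 farthest samples. Within groups it was 0.505 (permutation p = 0.0211, adjusted p = 0.222). Leaving out single samples took the Itgb2 relation past an adjusted p of 0.05 for 14 of the 20 samples, and the Itgam relation for 1, control female 2 (r = 0.655, permutation p = 0.00263, adjusted p = 0.0552). For Itgax, r with the marker sum was 0.510 (permutation p = 0.0226, adjusted p = 0.118) and rho was 0.531 (permutation p = 0.017, adjusted p = 0.0891). Its r was 0.479 without the 2 farthest samples and 0.616 within groups (permutation p = 0.0047, adjusted p = 0.0987), the highest within-group value of the 6 members. Without nPM male 4, which had 4 counts of Itgax, its r over all samples was 0.628 (permutation p = 0.00376, adjusted p = 0.0384). Among the 10 pairs of members without Itgad none had a permutation p under 0.05 for Pearson r, and the lowest was that of Itgam with Itgb2 (r = 0.414, permutation p = 0.0702).

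Itgad did not follow these markers upward. Its r was -0.474 with the microglia sum and -0.583 with Itgam over the 20 samples, and 0.00 and -0.06 within groups, given as a description since the female values of Itgad chose it. The negative values over all samples thus lay between the groups, where control females had the most Itgad, the least Itgam and the lowest marker sums.

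**Figure D4:**
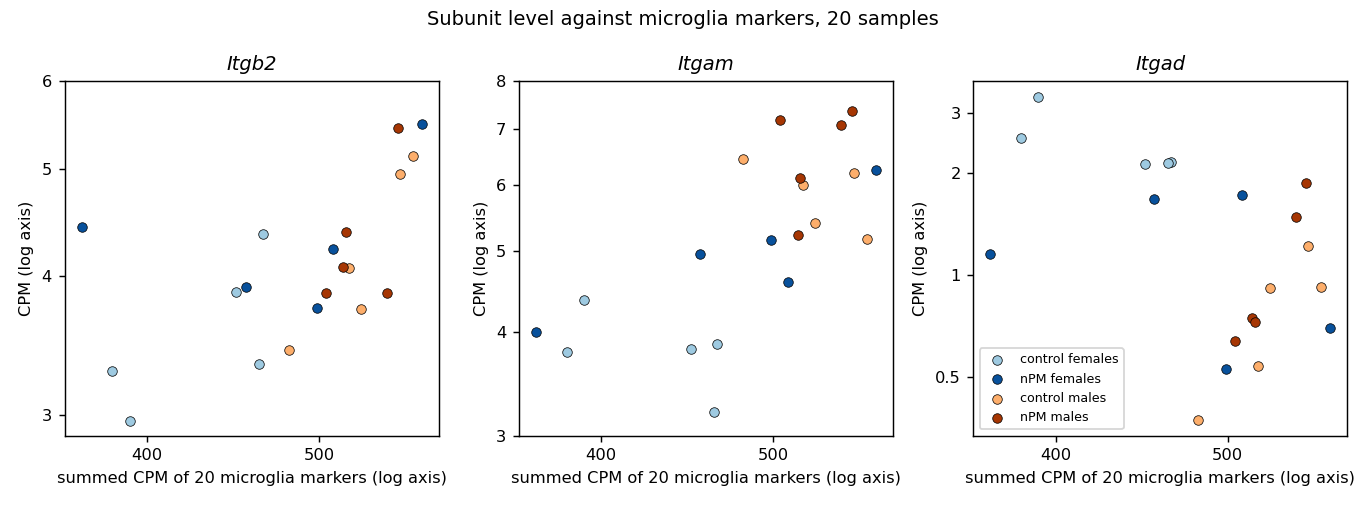
CPM of Itgb2, Itgam and Itgad (vertical, log axis) against the summed CPM of 20 microglia markers (horizontal, log axis), 1 point per sample, coloured by group. Itgb2 and Itgam tend to be higher where the markers are higher (r = 0.604 and 0.694), whereas for Itgad the control females lie at the upper left (r = -0.474).

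Other leukocytes could also carry these chains. Per exon length their markers ran from the detection limit to above Itgb2, and above Itgam over all its exon bases (Ighm, 3.345 RPKM). Of 12 monocyte and neutrophil markers 2 passed the filter on low counts, of 12 T and NK cell markers 2, of 6 B cell markers 2, and of 10 markers of border macrophages 9. Each marker had a count in at least 1 library. The summed monocyte and neutrophil markers were 1.33 to 5.98 CPM in control males, 1.48 to 2.595 in nPM males, 0.979 to 1.60 in control females and 0.767 to 2.26 in nPM females. S100a9 and S100a8, neutrophil proteins and the highest of that list per length, had 1 to 50 and 0 to 39 counts and did not pass the filter. Of the lymphocyte lists, Lck had 11 to 48 counts, Cd4 0 to 89, Ighm 91 to 287 and Blnk 51 to 179. The highest border macrophage genes were Stab1 and Mrc1, scavenger receptors, at 1.52 and 1.06 RPKM. No gene of these 4 lists passed p under 0.005 in any of the 5 fits, and their part in the values of the members was not tested.

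Ligands and partner chains spanned a wide range of levels per length, from genes under the filter on low counts to genes far above the members. Of 18 ligands of leukocyte integrins 12 were tested, and none passed in an nPM fit in either sex, in both sexes combined or for the difference between the sexes (limma-voom). At an unadjusted p under 0.05 the counts were 0, 2, 0 and 1 in males, females, both sexes and the difference. At that level 4.28% of all genes passed in males and 1.99% in females, and nothing is read from these counts. The highest per length were Thy1 (164 RPKM), a neuronal surface protein that binds alpha M, and Icam5 (36.3 RPKM), a neuronal ligand of alpha L. The endothelial ligands Icam1 and Vcam1 had the 2 highest female nPM differences of the list, 0.63 ± 0.27 and 0.60 ± 0.26. Both were short of the threshold (limma-voom adjusted p = 0.99985 for both). Of the 12 tested ligands, 6 had positive and 6 negative fitted values in females, with a median of 0.001 against 0.004 over all genes. Between control females and control males 1 ligand passed, Fn1 (fibronectin), 0.60 ± 0.18 higher in females (limma-voom adjusted p = 0.0154). None of the 11 other alpha chains tested, led by Itgav and Itga7 at 12.3 and 6.72 RPKM, passed in any fit. At an unadjusted p under 0.05 there were 0 in males and 2 in females, Itga1 and Itga6, beside the same shares of all genes (4.28% and 1.99%). Of 8 other beta chains, Itgb1 and Itgb8 (17.3 and 13.2 RPKM) passed only between the control sexes, lower in females by 0.36 ± 0.09 and 0.46 ± 0.12. These counts of 1 of 12 ligands and 2 of 8 beta chains stand beside the 22.6% of all genes that passed between the control sexes, so they are no result about either list.

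The genes that switch integrins on or signal from them gave a like picture. Of 18 listed 17 were tested, none passed in an nPM fit (limma-voom), and 3 of 17, all lower in females, passed between the control sexes, where 22.6% of all genes passed and 8.96% passed as lower. These were Rap1a (-0.42) and Rap1b (-0.30), small GTPases that activate integrins, and Tyrobp (-0.53), the adaptor through which microglial receptors signal. Rap1b and Coro1a had the highest level per length, 27.5 and 19.4 RPKM. In females 15 of 17 fitted nPM values were positive, with a median of 0.19 against 0.00 over all genes, and the only one with a nominal p under 0.05 was Lyn, a kinase of the Src family (0.31 ± 0.12, limma-voom adjusted p = 0.99985). At that nominal level 1.99% of all genes passed in females.

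The libraries themselves varied in tissue make-up. The hippocampal neuron markers were present in all (1289 to 2426 summed CPM, led by Slc17a7 and Neurod6), while choroid plexus markers ran from 32.4 to 8289 CPM, led by Ttr and Kcnj13. By group their sums were 32.4 to 7371 CPM for control males, 76.6 to 5605 for nPM males, 46.5 to 504 for control females and 54.1 to 8289 for nPM females. With the choroid plexus markers as a covariate, Itgad in males was 0.49 and Itgam in females 0.43. No choroid plexus, hippocampal, endothelial or red blood cell marker passed in an nPM fit. Between the control sexes 1 of 8 endothelial markers passed, the receptor Flt1 (0.63), and 1 of 10 hippocampal markers, the neuronal factor Neurod2 (0.42). As 22.6% of all genes passed there, these counts are no result about either list. The endothelial list was led by Itm2a and Slco1a4, the red blood cell list by Hbb-bs and Hba-a1. Xist had 15466 counts or more in every female and 59 or fewer in every male, and Ddx3y, a gene of the Y chromosome, had 7 or fewer in every female and 3435 or more in every male. Ddx3y had 0 to 1 counts in control females and 2 to 7 in nPM females, near the floor. It was the 1 of 5 sex markers to pass with nPM in females (3.27 ± 0.55, limma-voom adjusted p = 0.603), where 0.0909% of genes passed. For the difference of the nPM effect between the sexes 2 of 5 passed, Ddx3y and Kdm5d, where 0.217% of genes passed. The cause was not tested. Between the control sexes all 5 passed, with Ddx3y, Uty, Kdm5d and Eif2s3y lower in females.

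The 5 genes whose log2 CPM was most like that of Itgad over the 20 samples, of 19796 compared, were Arrdc2 (r = 0.927), Plin4 (r = 0.895), Gm19439 (r = 0.853), Spsb1 (r = 0.826) and Cdkn1a (r = 0.822). As deviations from the group means the values were 0.897, 0.860, 0.766, 0.793 and 0.668, so the likeness was also present inside the groups. These are descriptions of genes picked for their r. Arrdc2, an arrestin-domain protein, ran from 8.69 to 18.1 CPM in control males, 10.1 to 20.8 in nPM males, 17.7 to 26.0 in control females and 9.62 to 24.8 in nPM females. Plin4, a coat protein of lipid droplets, ran from 11.97 to 23.4, 7.77 to 33.7, 46.1 to 68.6 and 18.4 to 50.3 CPM in the same groups. None of the 5 is an integrin gene or a marker of the lists above.

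For Itgb2 the 4 most alike were Dtx3l (r = 0.824), Was (r = 0.817), Gmpr (r = 0.771) and Zbtb18 (r = 0.763). Was encodes the actin regulator of blood cells that is mutated in Wiskott-Aldrich syndrome. Their values within groups were 0.776, 0.764, 0.733 and 0.771. None of these 4 was among the 5 genes nearest to Itgad.

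**Figure D5:**
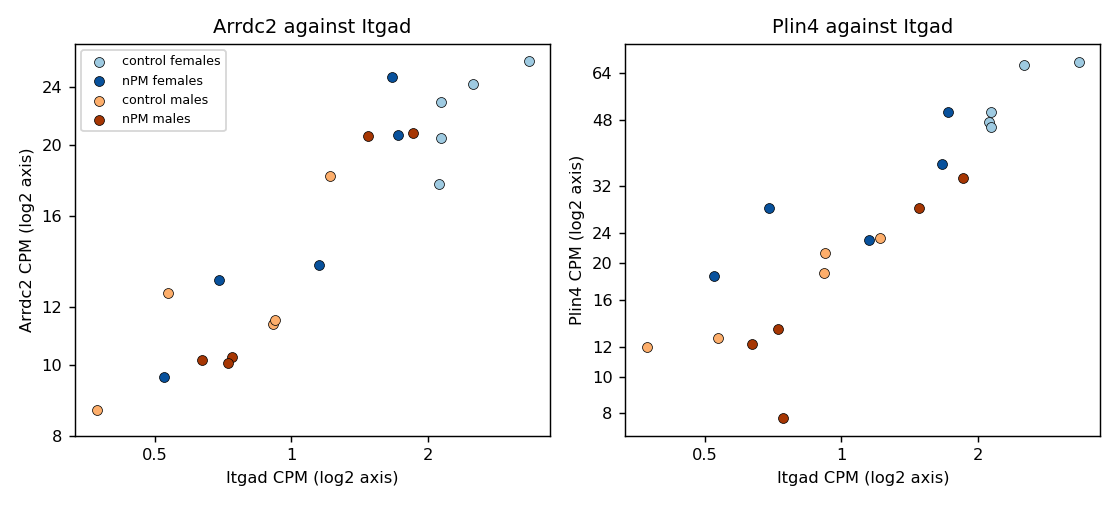
CPM of Arrdc2 (left) and Plin4 (right) against CPM of Itgad, both on log2 axes, 1 point per sample, coloured by group. The points rise together inside as well as between the groups (r = 0.927 and 0.895 over 20 samples), and the 2 nPM males with the most Itgad (1.48 and 1.86 CPM) lie with the higher values of both genes.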

How the data were processed

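RNA from 20 hippocampi (5 per sex and exposure) was made into rRNA-depleted libraries. Per the labels and methods, the authors checked reads with FastQC, trimmed adapters with Trimmomatic, aligned to mm10 with HISAT2 and counted genes with featureCounts 1.5.0-p3 against Gencode M11; strand and overlap options are not given in the sources used here. The deposited table holds raw counts per gene, and a gene map the authors deposited gives gene length and a mean RPKM over all samples, which the counts returned to within rounding. Totals were 19092067 to 38663408 counts.

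The members and the gene lists were chosen with earlier results of these data known. Genes were kept by filterByExpr (minimum count 10, total 15) over the 4 groups, 19797 of 48709. Each comparison was fitted with limma 3.58.1 voom (0.5 added to each count, TMM factors from edgeR 4.0.16 over the samples of the fit), two-sided, at p under 0.005 as in the study, beside Benjamini-Hochberg adjusted p. edgeR quasi-likelihood tests, DESeq2 1.42.0, other filters, RLE factors, quality weights, leaving out samples, the replicate number as a block and, chosen after seeing the data, choroid plexus markers as a covariate and 3 red blood cell marker-rich libraries (over 20 summed CPM) left out were alternatives. Scripts were tested on simulated data. Single values were checked with exact permutation tests, correlations with 100000 permutations. Named beside the members were genes overlapping Itgad, list genes under p of 0.005 in any fit with the 2 highest per length of each list, and the 5 genes nearest to Itgad and to Itgb2 by r; Icam1, Vcam1, Lyn, Itga1 and Itga6 fall outside that rule and were named after their values were seen. One gene that the rule names is not reported here. Same-numbered control and exposed samples did not deviate together (r from -0.364 to 0.157 over 10 pairs), and they were not paired in the main fits. Tissue make-up varied widely between libraries, so low r cannot exclude a shared litter or batch. Sequences were read from the mm10 genome with Gencode M21, in which the members' exon lengths and positions equal those of the gene map.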

Additional observations from a re-analysis of the deposited data

Results flagged for a closer look

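Of 24 groups of 5 samples examined for a value apart from the others (6 genes in 4 groups), 1 was found, where chance gives about 1 in 20. Itgax in nPM males had its lowest log2 CPM in nPM male 4, with 4 counts against 10 to 12 in the other 4, and the gap was 0.875 of the whole range, above the critical value of 0.71. Counts this low carry a large counting error.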

How the results depend on the processing

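The counts below are genes past p under 0.005. In males 41 became 113 with DESeq2, 130 with no filter on low counts and 73 with choroid plexus markers as a covariate, and 23 to 78 with 1 sample left out. In females 18 became 55 with DESeq2, 87 with no filter and 44 with sample quality weights (10 to 48 with 1 sample left out). With the sexes combined 28 became 43 with DESeq2, 71 with no filter, 14 with a mean of at least 1 CPM and 53 with quality weights (17 to 47 with 1 sample left out), and for the difference between the sexes 43 became 66 with edgeR, 89 with DESeq2, 149 with no filter, 23 with a mean of at least 1 CPM and 67 with the replicate block (24 to 77 with 1 sample left out). The cause of these moves was not tested. The block changed no other call.

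Members called rose from 0 to 1, in each case Itgam, in females with quality weights and in both sexes combined with DESeq2, with quality weights, without the 3 red blood cell marker-rich libraries and without nPM male 1 (0 to 1 over the samples left out). The remaining counts of members were the same under every setting run.

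Signs of these differences, none past the threshold, turned. Itgb2 in males was -0.025 with quality weights and -0.14 without the 3 libraries (-0.072 to 0.097 with 1 sample left out). Without those libraries Itga4 was 0.34 in males, 0.11 in both sexes, 0.41 for the difference between the sexes and 0.055 between the control sexes, and it was 0.055 in females with the choroid plexus covariate. With 1 sample left out Itga4 ran from -0.41 to 0.085 in males, -0.14 to 0.076 in females, -0.23 to 0.0082 in both sexes, -0.35 to 0.15 for the difference between the sexes and -0.27 to 0.055 between the control sexes, Itgal from -0.76 to 0.0024 in females and -0.012 to 0.40 between the control sexes, and Itgax from -0.11 to 0.21 in both sexes.

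Weak correlations also changed sign. Spearman rho was -0.0496 for Itgad with Itgax, -0.245 for Itgal with Itga4 and 0 for Itgb2 with Itga4. As deviations from group means r was 0.241 for Itgad with Itgb2, 0.156 for Itgam with Itgal, -0.0226 for Itgal with Itga4, 0.00539 for Itgb2 with Itga4 and 0.00246 for Itgad with the microglia sum. Without the 2 farthest samples r was 0.112 for Itgad with Itga4, -0.189 for Itgal with Itga4 and 0.00951 for Itga4 with the microglia sum. With 1 sample left out r ran from -0.169 to 0.0619 for Itgad with Itgal, -0.119 to 0.0941 with Itgax and -0.232 to 0.139 with Itga4, from -0.294 to 0.199 for Itgal with Itga4 and from -0.0676 to 0.0755 for Itgb2 with Itga4. Depth limits Itgal and Itgax most, at 2 to 48 counts per sample.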
